A study of Rattus norvegicus with 8 samples.

Results

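Genes for conjugating enzymes, esterases and carbonyl-detoxifying enzymes were followed in rat liver, in a series on diet-induced hepatocellular carcinoma. They were chosen by symbol alone: every gene of the authors' deposited table whose symbol begins with Ugt, Sult, Gst, Mgst, Nat, Ces, Fmo, Aldh, Adh, Akr, Aox or Ephx and carries a number, apart from Gstp1, Akr1b8 and Akr7a3. The pattern met 37 genes, and 34 of the 2462 genes of the authors' deposited table were left after those 3 exceptions. RNA was sequenced from livers of 8 wild type rats of the inbred strain Fischer 344 (F344), aged 1 year. The 4 CSAA rats ate a choline-sufficient amino acid-defined diet, the healthy diet of the series, and the 4 CDAA rats its choline-deficient counterpart, on which carcinomas arose. All 8 livers were flash frozen, and the labels name no other treatment, no sex and no dissection of tumour nodules. The authors' deposited table compares the diet groups and gives no value per rat, so the error of each fold change is the standard error (SE) of the authors' DESeq2 model with 4 rats against 4.

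The liver clears drugs, dietary toxins and its own metabolites in steps. Flavin monooxygenases, epoxide hydrolases and carboxylesterases expose or create polar groups, while alcohol dehydrogenases, aldehyde dehydrogenases, aldo-keto reductases and aldehyde oxidases convert alcohols and reactive carbonyls. Glutathione S-transferases, sulfotransferases, UDP-glucuronosyltransferases and N-acetyltransferases then attach a small group that makes the product easier to export. Several of these enzymes also work in ordinary metabolism, breaking down amino acids, folates and steroids.

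Most of the 34 genes were lower in the CDAA livers. The authors' deposited table put 22 lower and 12 higher, so that 35.3% were higher, against 57.1% of all 2462 listed genes. The median log2 fold change of CDAA over CSAA in the authors' deposited table was -1.22 among the fallers and 1.74 among the risers. Over all listed genes the medians in the authors' deposited table were -1.08 and 1.65. Of the 34 genes, 25 changed 2-fold or more by the authors' deposited table, against 75.1% of all listed genes. Of those 25, 10 rose and 15 fell, against 66.9% higher and 33.1% lower among the 1848 listed genes changed 2-fold or more in the authors' deposited table. Each gene there had an adjusted p (DESeq2), a false discovery rate (edgeR) and a q (Cufflinks) of at most 0.01, and the highest DESeq2 adjusted p of the 34 was 0.00644. A gene that is not in the authors' deposited table did not pass all 3 programs or was not analysed here, which does not show that it was stable.

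Most fallers were abundant transcripts, and most risers were scarce ones. The authors' deposited table gives each diet group a level in FPKM (fragment counts normalised for transcript length and sequencing depth), pooled over its rats and without SD. In CSAA the median of the 22 fallers was 135 FPKM and that of the 12 risers 4.71 FPKM in the authors' deposited table. In CDAA the medians were 41.7 FPKM and 18.7 FPKM. The most abundant of the 34 in CSAA was Aldh2, at 581 FPKM in the authors' deposited table, followed by Sult1a1 at 476 FPKM and Akr1c12 at 390 FPKM, and all 3 fell. The scarcest was Aldh1a2, at 0.223 FPKM, and it rose.

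**Figure D1:**
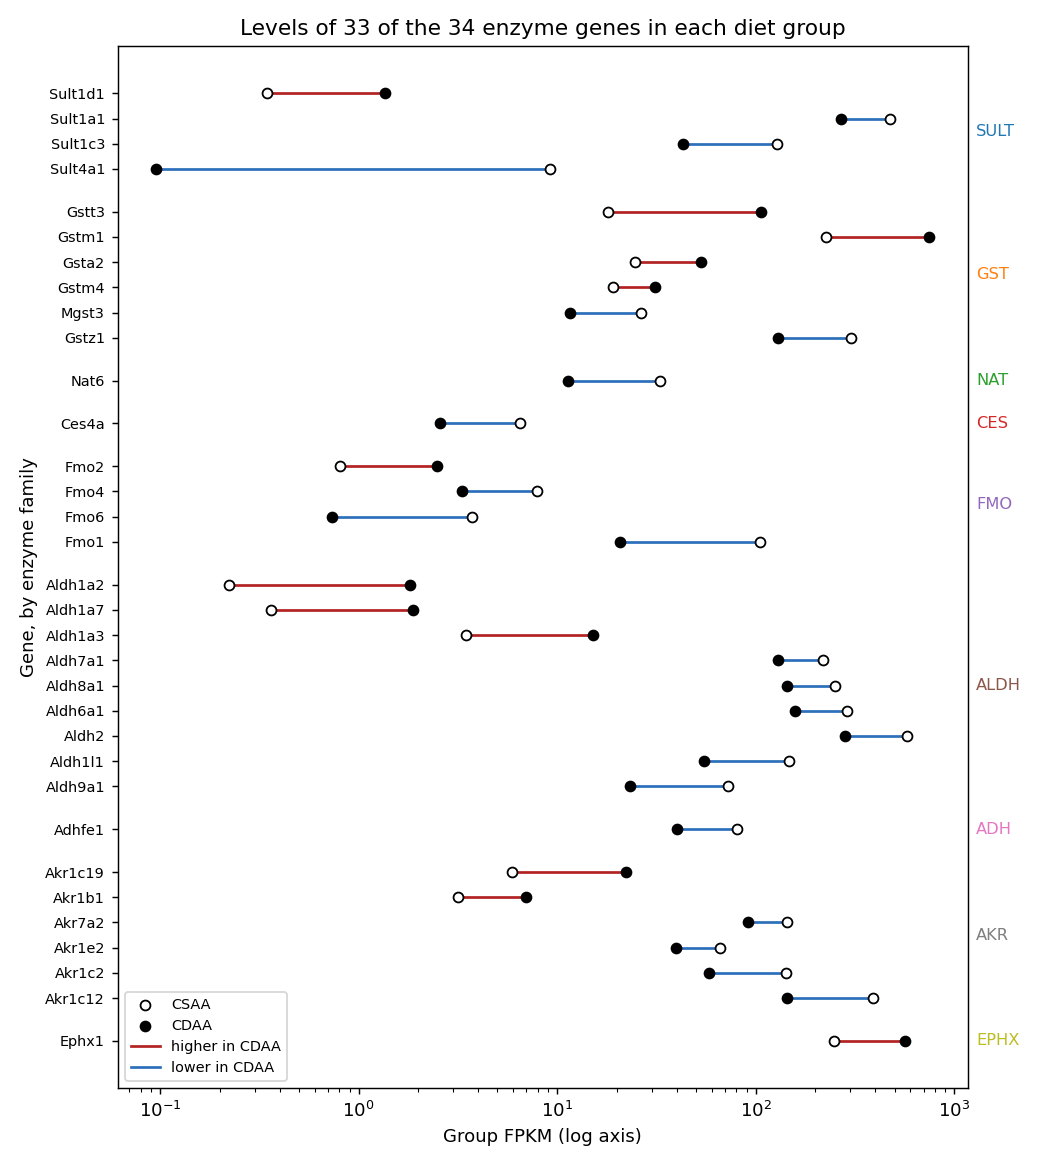
Group FPKM (log axis) of 33 of the 34 enzyme genes in CSAA (open circles) and CDAA (filled circles), sorted by family, from the authors' deposited table. Risers (red lines) mostly start low, such as Aldh1a2 at 0.223 FPKM, whereas Gstm1 (225 to 746 FPKM) and Ephx1 (248 to 563 FPKM) rose from a high level.

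Direction followed the level of a gene throughout the authors' deposited table, so the 34 were also read within classes of the mean of both group FPKM values, a split chosen after the values were seen. Among genes with a mean of at least 50 FPKM, 3 of 18 members rose, against 8.43% of the 439 listed genes of that class in the authors' deposited table. Those 3 were Gstm1, Gstt3 and Ephx1. From 10 to under 50 FPKM, 3 of 6 members rose, against 30.4% of 578 listed genes in the authors' deposited table. Under 10 FPKM, 6 of 10 members rose, against 82.6% of 1445 listed genes in the authors' deposited table. The lower share of risers over the whole set was thus not seen within the abundant classes, where the members' counts are small and no test was made.

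**Figure D2:**
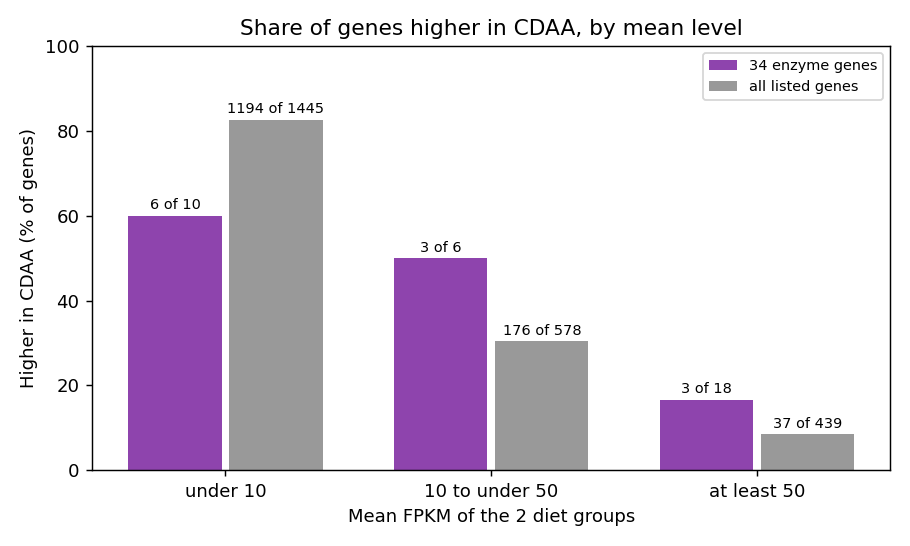
Percentage of genes higher in CDAA by the mean FPKM of the 2 diet groups, for the 34 enzyme genes and for all genes of the authors' deposited table, with counts above the bars. In the highest class 3 of 18 enzyme genes and 37 of 439 listed genes were higher, and under 10 FPKM 6 of 10 and 1194 of 1445.

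Flavin monooxygenases were mostly lower in the CDAA livers. These enzymes add oxygen to nitrogen and sulfur atoms. RefSeq names 8 protein-coding Fmo genes, and 5 of them were in the authors' deposited table, 4 lower and 1 higher, where 42.9% of all listed genes were lower. Fmo1, the form known for oxidising many drugs, went from 105 to 20.7 FPKM, or -2.24 ± 0.38, in the authors' deposited table. Fmo6 was scarce and fell from 3.72 to 0.735 FPKM (-2.18 ± 0.38), and Fmo4 fell from 7.93 to 3.32 FPKM (-1.25 ± 0.19), by the authors' deposited table. Fmo2 rose from 0.806 to 2.49 FPKM, or 1.54 ± 0.36 (SE; DESeq2 adjusted p = 0.000140), in the authors' deposited table. Even after its rise Fmo2 was below the CDAA levels of Fmo1 and Fmo4 in FPKM.

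These 4 Fmo genes lay side by side on chromosome 13, from 80685324 to 80819218 in build rn6 (the authors' Cufflinks loci). The order there is Fmo4, Fmo1, Fmo2, Fmo6, so the riser sits between fallers, 9.71 kb from the locus of Fmo1 and 16.3 kb from that of Fmo6. No other gene of the authors' deposited table lay in that span. Because these neighbours moved apart, the 250 bases before the RefSeq start of Fmo1 and of Fmo2 are printed 5′ to 3′ (RefSeq, build GRCr8: Fmo1 chr13:77747667-77747916, minus strand, and Fmo2 chr13:77777535-77777784, minus strand). Capitals, here and in the promoters printed further on, mark the letters of any motif searched, and neither of this pair holds one.
Fmo1: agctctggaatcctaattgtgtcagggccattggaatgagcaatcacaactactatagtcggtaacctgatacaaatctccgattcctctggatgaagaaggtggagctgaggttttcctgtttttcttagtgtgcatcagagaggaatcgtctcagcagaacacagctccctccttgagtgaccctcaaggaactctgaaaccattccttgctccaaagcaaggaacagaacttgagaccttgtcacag
Fmo2: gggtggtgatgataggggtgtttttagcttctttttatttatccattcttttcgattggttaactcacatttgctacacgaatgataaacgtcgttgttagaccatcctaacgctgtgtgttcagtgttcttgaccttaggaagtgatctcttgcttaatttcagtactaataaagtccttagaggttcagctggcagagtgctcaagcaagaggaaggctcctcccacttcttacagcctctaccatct

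Ephx1, the microsomal epoxide hydrolase that turns reactive epoxides into diols, rose from an already high level. Its level was 248 FPKM in CSAA and 563 FPKM in CDAA by the authors' deposited table, a log2 fold change of 1.14 ± 0.23 (SE; DESeq2 adjusted p = 4.59e-06), or 2.21-fold. In FPKM this gain of 315 was the fourth largest of the 1407 risers. RefSeq names 4 protein-coding Ephx genes, and Ephx1 (ENSRNOG00000003515; chromosome 13, 99271365 to 99300579, rn6) was the one in the authors' deposited table.

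Carboxylesterases, which split ester and amide drugs and lipids, were nearly absent from the authors' deposited table. Of 20 protein-coding Ces genes in RefSeq, Ces4a was the one listed. Ces4a fell from 6.53 to 2.58 FPKM by the authors' deposited table (-1.28 ± 0.27, SE; DESeq2 adjusted p = 2.48e-05). A gene outside the symbol rule, LOC100365112, is described in the authors' deposited table as carboxylesterase-like and went the other way, from 0.588 to 12.9 FPKM (4.28 ± 0.25, SE). It was picked out after its values were seen. Of 10 other esterases and hydrolases in a list set for this pathway, the authors' deposited table held 5 and all 5 fell, against 42.9% of all listed genes. Of these 5, 4 had a mean of at least 10 FPKM, a level at which most listed genes fell. Pon1, the plasma paraoxonase made by the liver, was at -1.17 ± 0.23 and Bche, butyrylcholinesterase, at -1.65 ± 0.35 (SE) in the authors' deposited table.

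Aldehyde dehydrogenases made up the most numerous family, with 9 listed genes, of which 6 fell and 3 rose by the authors' deposited table. Over all listed genes 42.9% fell. Every faller was an abundant liver enzyme of ordinary metabolism, and every riser belonged to the 1a branch, whose best-known members make retinoic acid from retinal. The 6 fallers had CSAA levels of 72.5 to 581 FPKM and the 3 risers of 0.223 to 3.48 FPKM by the authors' deposited table, so the ranges do not overlap. The family shares this order of levels with the whole table. Over all listed genes the median CSAA level was 42.4 FPKM for fallers and 1.02 FPKM for risers.

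Among the fallers, Aldh2, the mitochondrial enzyme that clears acetaldehyde, went from 581 to 281 FPKM by the authors' deposited table (-1.03 ± 0.24, SE; DESeq2 adjusted p = 0.000162). Aldh9a1, which makes the carnitine precursor trimethylaminobutyrate and can also form betaine, the oxidised form of choline, fell from 72.5 to 23.2 FPKM by the authors' deposited table. Its log2 fold change was -1.63 ± 0.16 (SE; DESeq2 adjusted p = 1.68e-21), the steepest of the 6. Aldh1l1, the formyltetrahydrofolate dehydrogenase of the folate cycle, fell from 147 to 54.8 FPKM (-1.33 ± 0.32, SE; DESeq2 adjusted p = 0.000225) in the authors' deposited table. The other 3 serve amino acid breakdown and fell by less than 2-fold in the authors' deposited table. Aldh6a1, of valine breakdown, was at -0.86 ± 0.25, Aldh8a1, of the kynurenine pathway, at -0.81 ± 0.18, and Aldh7a1, of lysine breakdown, at -0.75 ± 0.19 (SE). Together these 3 stood at 219 to 289 FPKM in CSAA and at 129 to 157 FPKM in CDAA by the authors' deposited table.

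Of the risers, Aldh1a2 went from 0.223 to 1.81 FPKM by the authors' deposited table, a log2 fold change of 2.79 ± 0.43 (SE; DESeq2 adjusted p = 2.12e-09) and the steepest rise of all 34 genes. Aldh1a3 went from 3.48 to 15.2 FPKM (2.04 ± 0.28, SE; DESeq2 adjusted p = 4.02e-12) in the authors' deposited table. Aldh1a7 went from 0.360 to 1.88 FPKM (2.18 ± 0.43, SE; DESeq2 adjusted p = 5.07e-06) in the authors' deposited table, over a Cufflinks locus of 402 kb, far longer than those of its relatives (36.8 kb for Aldh1a3). Reads of close copies in the 1a branch could be split between them in ways the labels and headers do not state. Aldh1a1, the abundant hepatic member of the branch, was not in the authors' deposited table.

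Alcohol dehydrogenases contributed only Adhfe1, an iron-dependent mitochondrial enzyme that oxidises hydroxybutyrate and is not related to the classical liver forms. Adhfe1 fell from 80.2 to 40.1 FPKM (-0.97 ± 0.27, SE; DESeq2 adjusted p = 0.00214) in the authors' deposited table. RefSeq names 7 protein-coding genes with an Adh symbol, and none of the classical ones was in the authors' deposited table. None of 4 Aox genes, the aldehyde oxidases, was there either.

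Aldo-keto reductases reduce aldehydes and ketones with NADPH. Besides the excepted Akr1b8 and Akr7a3, which both rose, RefSeq names 16 protein-coding genes of this family, and 6 were in the authors' deposited table. Of these, 4 fell and 2 rose by the authors' deposited table, where 42.9% of all listed genes fell. Akr1c12, of the branch that handles steroids and other ketones, fell from 390 to 143 FPKM, or -1.41 ± 0.26 (SE; DESeq2 adjusted p = 7.80e-07), in the authors' deposited table. Akr1c2 of the same branch fell from 141 to 58.3 FPKM (-1.18 ± 0.28, SE), and both remaining fallers changed by less than 2-fold, in the authors' deposited table. These were Akr1e2, known in mice for reducing anhydrofructose (-0.73 ± 0.20), and Akr7a2, a succinic semialdehyde reductase (-0.65 ± 0.15), the smallest change of the 34 in the authors' deposited table. Akr1c19 rose from 5.94 to 22.1 FPKM, or 1.79 ± 0.25 (SE; DESeq2 adjusted p = 4.31e-11), in the authors' deposited table. Akr1b1, aldose reductase, the first enzyme of the polyol pathway, rose from 3.15 to 6.99 FPKM (1.07 ± 0.34, SE; DESeq2 adjusted p = 0.00644), the highest adjusted p of the 34 in the authors' deposited table.

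Of 4 pairs of neighbouring reductases, 2 moved apart and 2 moved the same way. Akr1c19 and Akr1c12 lay 20.3 kb from each other on chromosome 17 (69654169 to 69711689, rn6), the former higher and the latter lower in the authors' deposited table. Akr1e2 and Akr1c2, 8.39 kb apart on the same chromosome (69365452 to 69404341), both fell. On chromosome 5, Akr7a2 fell 32.7 kb from the excepted Akr7a3, whose log2 fold change was 3.32 ± 0.29 (SE) in the authors' deposited table. On chromosome 4, Akr1b1 rose 51.0 kb from the excepted Akr1b8, which was at 4.68 ± 0.35 (SE) in the authors' deposited table. Near-identical exons could let reads pass between such copies, and the labels and headers do not say how the authors' counting treated them.

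**Figure D3:**
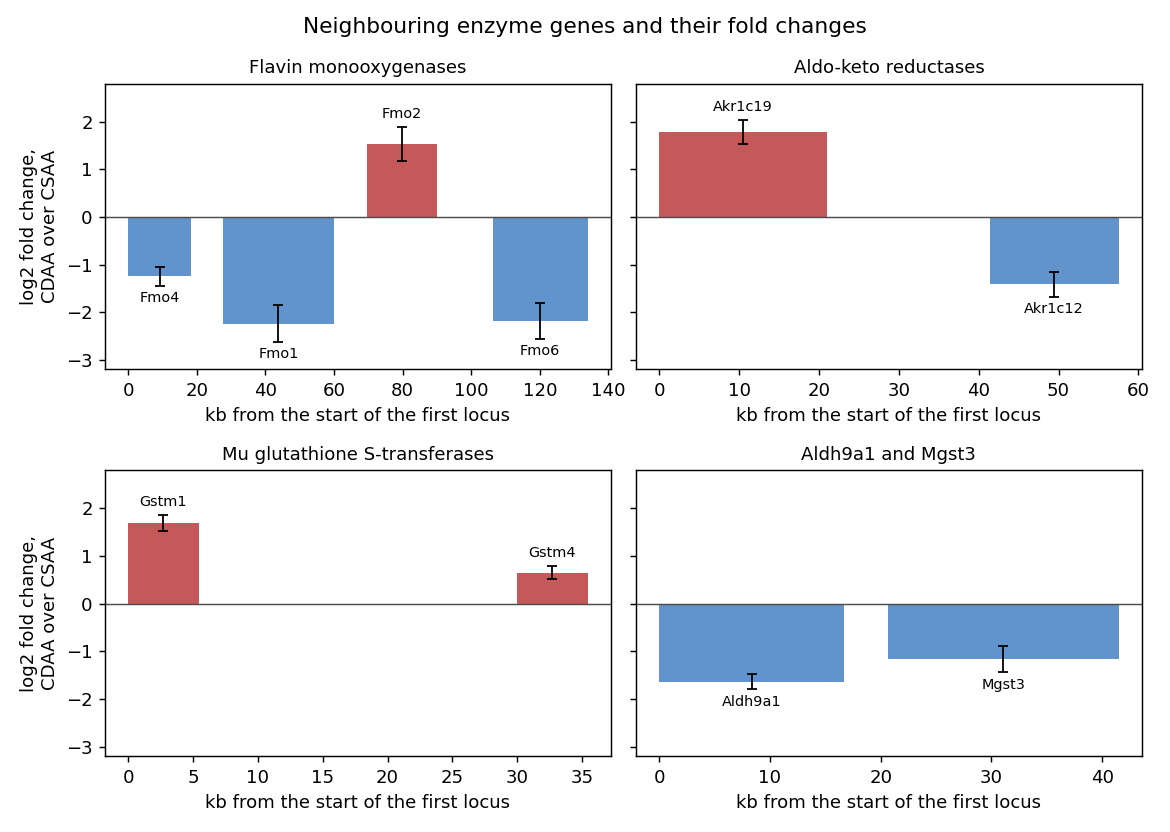
DESeq2 log2 fold change (bar height, error bars SE) against distance in kb from the start of the first locus, for 4 groups of neighbouring enzyme genes in the authors' deposited table; bar width is the length of the locus. Fmo2 rose by 1.54 between Fmo1 (-2.24) and Fmo6 (-2.18), Akr1c19 (1.79) and Akr1c12 (-1.41) moved apart, and the Gstm and the Aldh9a1 and Mgst3 pairs each moved one way.

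Glutathione S-transferases moved in both directions in the CDAA livers. These enzymes couple electrophiles to glutathione. Besides the excepted Gstp1, RefSeq names 30 protein-coding genes of this family, and 6 were in the authors' deposited table, 4 higher and 2 lower, where 57.1% of all listed genes were higher. Of those changed at least 2-fold, 2 were higher and 2 lower in the authors' deposited table. Gstm1, an abundant mu-class enzyme (ENSRNOG00000029726; chromosome 2, 210803868 to 210809306, rn6), was at 225 FPKM in CSAA and at 746 FPKM in CDAA by the authors' deposited table. This is a log2 fold change of 1.70 ± 0.17 (SE; DESeq2 adjusted p = 4.58e-21), or 3.25-fold. Its gain of 521 FPKM was the largest of the 1407 risers of the authors' deposited table, although its log2 fold change ranked 664 among them. Gstt3, of the theta class, rose from 18.0 to 106 FPKM (2.31 ± 0.44, SE; DESeq2 adjusted p = 1.83e-06) in the authors' deposited table. Gsta2, an alpha-class enzyme, rose from 24.8 to 53.2 FPKM (0.97 ± 0.30, SE; DESeq2 adjusted p = 0.00535), and Gstm4 rose from 19.1 to 30.9 FPKM (0.66 ± 0.15, SE; DESeq2 adjusted p = 5.18e-05), in the authors' deposited table.

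Both fallers of the family stand apart from the classical cytosolic detoxifying forms. Gstz1, the zeta-class enzyme that isomerises maleylacetoacetate in tyrosine breakdown, fell from 304 to 130.2 FPKM by the authors' deposited table (-1.19 ± 0.25, SE; DESeq2 adjusted p = 2.00e-05). Mgst3, a membrane-bound microsomal enzyme, fell from 26.4 to 11.6 FPKM (-1.16 ± 0.28, SE; DESeq2 adjusted p = 0.000172) in the authors' deposited table. Outside the symbol rule, LOC102550391, described in the authors' deposited table as like Gsta3, fell from 438 to 237 FPKM (-0.87 ± 0.26, SE). Listed alpha-class genes thus stood on both sides. Over the 6 members the summed level went from 617 to 1078 FPKM by the authors' deposited table, a sum over listed genes only. It leaves out LOC102550391 and the excepted Gstp1, which rose from 16.9 to 472 FPKM. Without Gstm1 the direction turned for the members, and the other 5 summed to 392 FPKM in CSAA and 332 FPKM in CDAA by the authors' deposited table. That turn belongs to the members chosen by symbol and does not hold once Gstp1 and LOC102550391 are counted.

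The promoters of neighbouring genes that moved the same way are shown for comparison with the Fmo pair. Gstm1 and Gstm4 lie 24.6 kb apart on chromosome 2 in rn6. Mgst3 lies 4.004 kb from Aldh9a1 on chromosome 13 (85580827 to 85622314, rn6), a gene of another family that fell with it. Aldh9a1 is on the plus and Mgst3 on the minus strand, so their promoters lie at the outer ends of the pair, away from this gap. The 250 bases before each RefSeq start are printed 5′ to 3′ (RefSeq, build GRCr8: Gstm1 chr2:198343384-198343633, minus strand, and Gstm4 chr2:198373384-198373633, minus strand, and Aldh9a1 chr13:82038429-82038678, plus strand, and Mgst3 chr13:82080296-82080545, minus strand). Capitals mark GCGTG, the core recognised by the aryl hydrocarbon receptor, or its reverse complement.
Gstm1: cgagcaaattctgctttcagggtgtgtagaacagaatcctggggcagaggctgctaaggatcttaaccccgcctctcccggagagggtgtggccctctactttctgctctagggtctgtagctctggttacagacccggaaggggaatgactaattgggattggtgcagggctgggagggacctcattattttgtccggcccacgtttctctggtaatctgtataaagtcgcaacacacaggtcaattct
Gstm4: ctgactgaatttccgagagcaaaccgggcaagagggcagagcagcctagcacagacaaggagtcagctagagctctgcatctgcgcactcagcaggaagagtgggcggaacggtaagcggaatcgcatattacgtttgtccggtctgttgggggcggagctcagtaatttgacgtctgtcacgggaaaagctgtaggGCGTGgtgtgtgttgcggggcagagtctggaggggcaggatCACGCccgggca
Aldh9a1: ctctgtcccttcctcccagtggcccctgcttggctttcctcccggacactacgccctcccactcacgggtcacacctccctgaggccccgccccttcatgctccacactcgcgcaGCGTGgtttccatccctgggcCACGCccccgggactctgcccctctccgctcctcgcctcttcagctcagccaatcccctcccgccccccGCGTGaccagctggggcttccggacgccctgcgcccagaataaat
Mgst3: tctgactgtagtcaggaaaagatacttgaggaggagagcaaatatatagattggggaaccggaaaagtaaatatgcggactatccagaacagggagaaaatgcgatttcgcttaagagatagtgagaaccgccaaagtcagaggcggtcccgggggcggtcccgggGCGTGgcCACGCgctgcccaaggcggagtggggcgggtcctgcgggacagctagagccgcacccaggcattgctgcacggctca

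Of the 34 genes, 27 had a promoter in the RefSeq table, and their 250 bases were searched on both strands for short motifs. GCGTG was found in 8 of 27 (29.6%), against 25.9% of all 33469 RefSeq promoters, and it was held by 4 of 10 risers and 4 of 17 fallers. TGACNNNGC, the core of the antioxidant element bound by NRF2, was found in 2 of 27, the riser Aldh1a2 and the faller Gstz1, against 10.1% of all promoters. A direct repeat of nuclear receptor sites with a spacer was found in none of the 27 and in 0.00299% of all promoters. These are matches of letters in a short window and say nothing of binding. Median GC content was 52.0% in promoters of risers, 52.4% in those of fallers and 51.2% over all promoters.

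Sulfotransferases, which transfer sulfate to phenols, steroids and amines, had 4 listed members by symbol. Of these, 3 fell and 1 rose by the authors' deposited table, where 42.9% of all listed genes fell. Sult1a1, the main phenol sulfotransferase of liver, fell from 476 to 268 FPKM (-0.81 ± 0.23, SE; DESeq2 adjusted p = 0.00181) in the authors' deposited table. Sult1c3, known in rats for sulfating carcinogenic hydroxyarylamines, fell from 128 to 43.3 FPKM (-1.54 ± 0.21, SE; DESeq2 adjusted p = 1.06e-11) in the authors' deposited table. Sult4a1, otherwise known from brain and with no settled substrate, fell from 9.23 to 0.0957 FPKM by the authors' deposited table. The size of that fall depends on the program: DESeq2 put it at -2.95 ± 0.73 (SE; adjusted p = 0.000379), edgeR at -6.69 and Cufflinks at -6.59 in the authors' deposited table. Sult4a1 was the only one of the 34 for which the programs differed by over 1.5 times, as they did for 105 of all 2462 listed genes. Its SE was the largest of the 34. Sult1d1, a sulfotransferase of amines in mice, rose from 0.347 to 1.36 FPKM (1.81 ± 0.39, SE; DESeq2 adjusted p = 3.07e-05) in the authors' deposited table.

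Sult1d1 too had a neighbour that moved the other way. The gene listed as ste2, which RefSeq gives as a synonym of the estrogen sulfotransferase Sult1e1, lies 2.53 kb from the locus of Sult1d1 on chromosome 14 (22091776 to 22126021 for Sult1d1, rn6). It was at 750.0 FPKM in CSAA and 127 FPKM in CDAA, or -2.43 ± 0.34 (SE), in the authors' deposited table. Its symbol keeps it outside the rule, as does that of LOC100912485, described in the authors' deposited table as alcohol sulfotransferase-like, which fell from 246 to 77.5 FPKM (-1.50 ± 0.45, SE). Both were picked out after their values were seen.

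No UDP-glucuronosyltransferase was in the authors' deposited table, of 21 protein-coding Ugt genes in RefSeq. The N-acetyltransferases of drug metabolism were not in it either. The gene listed there as Nat6 is Naa80 in RefSeq, an enzyme known in humans for acetylating actin, and it fell from 32.8 to 11.4 FPKM (-1.54 ± 0.27, SE; DESeq2 adjusted p = 2.81e-07) in the authors' deposited table.

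**Figure D4:**
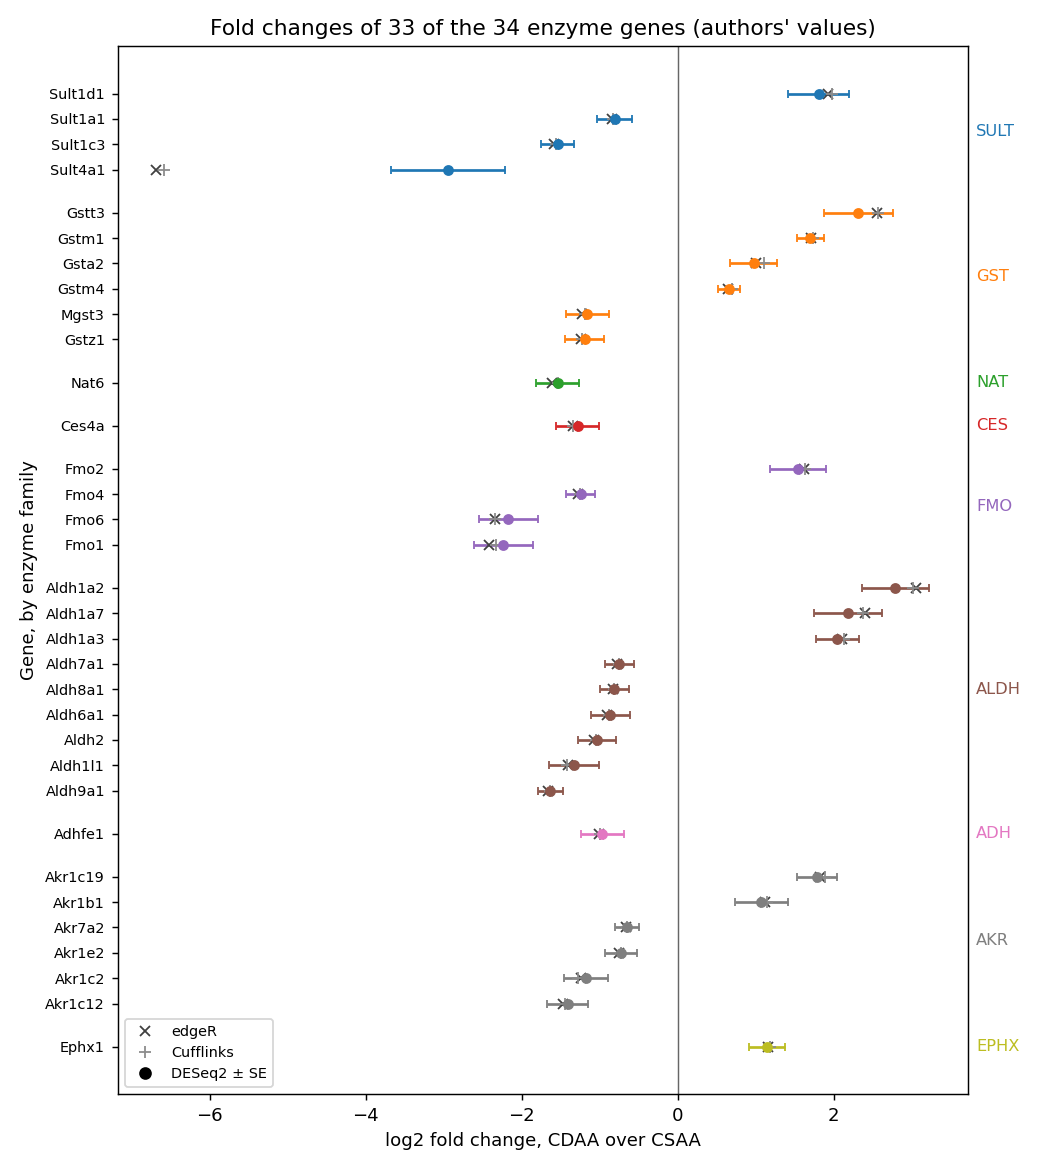
Log2 fold change of CDAA over CSAA for 33 of the 34 enzyme genes by family in the authors' deposited table, with DESeq2 values (circles, bars are SE), edgeR (crosses) and Cufflinks (plus signs). All 33 keep their sign in the 3 programs, each of which a gene had to pass to be listed. Sult4a1 is the gene whose values part, at -2.95 with DESeq2 and -6.69 with edgeR.

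Genes that supply, follow or regulate these enzymes were counted from lists set for the pathway, without a test. Their counts stand beside 57.1% higher and 42.9% lower over all genes of the authors' deposited table. Of 13 cofactor genes, 7 were in the authors' deposited table, 4 higher and 3 lower. The steepest changes among these 7 were falls, Acly at -2.52 ± 0.40 and Acss2 at -1.85 ± 0.24 (SE), in the authors' deposited table. The 7 genes summed to 762 FPKM on the CSAA diet and 510 FPKM on the CDAA diet. Acly alone made up 527 FPKM of the former sum and 78.1 FPKM of the latter. Both subunits of the enzyme that starts glutathione synthesis rose: Gclm, a subunit of glutamate-cysteine ligase, went from 68.8 to 208 FPKM (1.53 ± 0.24, SE), and its catalytic partner Gclc was at 1.26 ± 0.27, in the authors' deposited table. The genes that make the sulfate donor moved apart, Papss1 at 1.36 ± 0.25 and the more abundant Papss2 at -1.10 ± 0.16 (SE) in the authors' deposited table. Of 13 other conjugating enzymes 4 were listed, each with a mean of at least 10 FPKM, and all 4 fell in the authors' deposited table. Of 15 other carbonyl and quinone reductases, 2 rose and 2 fell, with the quinone reductase Nqo1 at 2.30 ± 0.35 and Hsd11b1, which regenerates glucocorticoid, at -1.66 ± 0.23 (SE), in the authors' deposited table. Of 10 deconjugating enzymes, 2 rose and 1 fell, with the steroid sulfatase Sts at -0.97 ± 0.24 (SE) in the authors' deposited table. Among 9 exporters of conjugates, 3 rose and 1 fell by the authors' deposited table. Abcc4, a basolateral pump, was at 2.56 ± 0.30 and Abcc6 at -1.68 ± 0.28 (SE). Of 16 regulators 6 were listed, 4 of them with a mean of at least 10 FPKM, a level at which most listed genes fell, and all 6 fell in the authors' deposited table, such as Arnt, the partner of the aryl hydrocarbon receptor (-0.72 ± 0.11, SE). The nuclear receptors Nr1i2 (PXR) and Nr1i3 (CAR), as well as Nfe2l2 (NRF2), were not in the authors' deposited table.

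Markers of other liver cells moved with the diet as well. In bulk liver RNA, fewer cells of a type and less RNA per cell cannot be told apart. The labelled tissue fits the levels of the hepatocyte markers Ttr and Apoc3, at 13443 and 6253 FPKM in CSAA in the authors' deposited table. Of 10 hepatocyte markers, 3 were in the authors' deposited table, all lower, with a summed level of 19875 FPKM on the CSAA diet and 8653 FPKM on the CDAA diet and log2 fold changes from -1.47 to -0.76. Of 9 bile duct markers 7 rose, from a sum of 28.8 to 113 FPKM, and of 9 macrophage markers 4 rose, from 15.1 to 83.1 FPKM, by the authors' deposited table. Of 10 stellate and fibroblast markers 5 rose, from 13.4 to 49.5 FPKM, by the authors' deposited table. Of these 16 listed markers, 12 had a mean under 10 FPKM, a class in which 82.6% of all genes of the authors' deposited table rose. The 3 hepatocyte markers had means above 50 FPKM, where 8.43% rose. Of 9 endothelial markers 1 rose and 1 fell, and of 9 lymphocyte markers 1 rose. None of the listed markers was at 0 in either diet group, and their part in the enzyme results was not tested.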

How the data were processed

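Liver RNA of 8 rats, 4 on CSAA and 4 on CDAA, was sequenced from Illumina TruSeq libraries of Trizol-extracted total RNA, per the labels' protocols. The submitters' processing notes name build rn6 and the tools TopHat2, FastQC, edgeR, DESeq2 and Cufflinks. The versions, read counter, strand setting and annotation are not given in the sources used for this work.

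The authors deposited 1 table of their own comparison. Per the file headers it holds a DESeq2 mean of normalised counts (a signal), log2 fold changes with SE, test scores and p-values from the authors' programs, and the authors' Cufflinks value per group, taken as FPKM, which the header does not name. The sign of the authors' DESeq2 fold equalled that of CDAA over CSAA in FPKM for 2457 of 2462 genes, so positive means higher in CDAA. The authors' table is selected (highest DESeq2 adjusted p 0.00986, smallest absolute log2 fold change 0.599), which tends to overstate small effects. Depth per rat is unknown; mean counts over mean CPM give about 14100000 reads in a typical normalised library, and the members' mean normalised counts ran from 21.6 to 12631. The FPKM are pooled, so no interval could be set.

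With no value per rat, no test was made here: values were described and members counted by direction, with the authors' DESeq2 values as the main ones. Single values of 1 member and 2 list genes are not reported here, although counts include them. Every other member could be named; full values went to up to 4 of each family with the largest change, to members opposite to most of their family and to those over which programs differed by over 1.5 times. The members, lists and tests were chosen with earlier results of these data known. Names and promoters came from RefSeq (GRCr8), which recognised 33 of the 34 symbols. The motif search was tested on simulated data. Alternatives were the other programs, stricter limits, FPKM filters and a narrower rule. Computations used Python 3.11.15, pandas 2.3.3, numpy 2.4.6 and matplotlib 3.10.9.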

Additional observations from a re-analysis of the deposited data

How the results depend on the processing

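All 34 genes kept their direction with the authors' edgeR and Cufflinks values in place of DESeq2. A gene had to pass all 3 programs on the same 8 rats to be listed, so this agreement was largely set in advance. Over the whole table the DESeq2 sign equalled that of the FPKM change for 2457 of 2462 genes. Over all members, 22 lower and 12 higher, the counts moved by over 1.5 times under none of these settings: at least 2-fold (15 lower, 10 higher), an adjusted p under 0.001, at least 1 or 5 FPKM in the higher group, and leaving out Sult4a1, Nat6 or Adhfe1. At 2-fold 40.0% of members were higher, against 66.9% of listed genes. With at least 5 FPKM, 21 were lower and 8 higher, at the limit of 1.5 times for the risers. There 27.6% of members were higher, against 37.4% of listed genes, so the members stood closer to the whole table. Split by mean FPKM after the data were seen, the higher members were 6, 3 and 3 and the lower ones 4, 3 and 15 from the lowest to the highest class. Within families, asking for 2-fold left 2 of 4 glutathione S-transferases higher and 2 of 2 lower, so that risers no longer outnumbered fallers, 3 of 6 aldehyde dehydrogenases lower and 2 of 4 aldo-keto reductases lower. Asking for 5 FPKM left 0 sulfotransferases and 0 flavin monooxygenases higher and 1 aldehyde dehydrogenase higher, and an adjusted p under 0.001 left 1 aldo-keto reductase higher. These shifts follow from the filters, which leave fewer genes. No member shared its Cufflinks locus with another listed gene. No paired analysis was possible because the deposited table holds no value per rat, and for the same reason leaving out single rats, another normalization and a test on counts were not run.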
